A study of Mus musculus with 8 samples.

Results

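The expression of 10 imprinted genes that control growth (H19, Meg3, Peg3, Plagl1, Cdkn1c, Dlk1, Mest, Grb10, Nnat and Ndn) was examined in immortalized mouse dental papilla cells with and without Bmp2, a growth factor of the TGF-β superfamily. The genes were taken by symbol, and each had a row among the 22609 gene symbols counted. Of the 10, 7 had enough reads to be tested for genotype, among 13121 genes tested in all. The Bmp2 floxed/floxed cells (iBmp2 fx/fx, called floxed cells here) carry floxed Bmp2 alleles and served as the control, while the Bmp2 knock out cells (iBmp2 ko/ko, called KO cells here) carry the deletion. Both are single immortalized lines, so a difference between the genotypes cannot be told apart from a difference between the lines. Total RNA of each line was sequenced once at 6, 24, 48 and 72 h of culture, which gave 4 libraries per genotype, and whether the times came from separate cultures is not stated. The p-values therefore measure the spread between these libraries only. The library labels give 6 h where the deposited design text gives 8 h.

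An imprinted gene is transcribed mainly from the copy inherited from one parent, because DNA methylation laid down in the egg or the sperm marks the copies differently. Imprinted genes lie in clusters governed by shared control regions. In broad terms, many maternally expressed members, such as Cdkn1c, Grb10 and H19, restrain the growth of the embryo, and many paternally expressed ones, such as Igf2, promote it. Several of the genes are abundant in embryonic mesenchyme and are turned down after birth. The counts hold both alleles together, so the parental origin of a transcript was not measured.

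Of the 7 members tested, 2 (Cdkn1c and Grb10) differed between the genotypes by more than 1 on the log2 scale with an unadjusted p under 0.05 in edgeR, against 7.35% of all genes tested, and both were higher in the KO cells. After adjustment over all genes 0 members passed in the same fit (adjusted p of 0.344 and 0.174 for these 2). With the culture time as a block both passed after adjustment (edgeR adjusted p of 0.000961 for Cdkn1c and 0.0248 for Grb10), as did 8.45% of all genes tested. With the block over all 8 libraries 0 members passed. Grb10 had a floxed mean below the limit of detection and passed the filter on low counts only through its KO libraries, so it had to differ. Cdkn1c was higher in the KO library at 6, 48 and 72 h, and also at 24 h, where the KO library stood apart from the others of its genotype. The Cdkn1c level was lowest at 72 h in both lines. Grb10 was at most 5 reads in the floxed libraries and 10 to 13 reads in the KO libraries of 6, 48 and 72 h. Plagl1 was well expressed in both lines, with levels that overlapped. H19, Mest, Nnat and Ndn were expressed at low levels that also overlapped between the genotypes. Meg3, Peg3 and Dlk1 had at most 2 reads in every library.

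Promoter sequences of RefSeq (build GRCm38.p6, 250 bases before to 50 bases after a transcript start) were matched by symbol for 8 of the members, with 12 promoters in all. They are shown for their CG pairs, since DNA methylation falls on the cytosine of such pairs. Which of these promoters lie in a control region of imprinting was not examined. The 4 chosen are those of Grb10, which had more reads in the KO libraries of 6, 48 and 72 h, of Plagl1, which was well expressed, and of Dlk1 and Peg3, which were under the limit of detection. Each is written 5′ to 3′ on the strand of the gene, with every CG pair in capitals.
Grb10 (chr11:12037371-12037670, minus strand): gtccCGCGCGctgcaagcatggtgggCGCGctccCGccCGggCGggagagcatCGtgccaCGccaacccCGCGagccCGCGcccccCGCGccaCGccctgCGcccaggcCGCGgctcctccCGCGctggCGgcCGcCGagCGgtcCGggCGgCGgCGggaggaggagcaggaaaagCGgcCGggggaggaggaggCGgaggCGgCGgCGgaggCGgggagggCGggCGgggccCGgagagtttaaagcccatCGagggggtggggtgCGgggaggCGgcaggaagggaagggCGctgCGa
Plagl1 (chr10:13090582-13090881, plus strand): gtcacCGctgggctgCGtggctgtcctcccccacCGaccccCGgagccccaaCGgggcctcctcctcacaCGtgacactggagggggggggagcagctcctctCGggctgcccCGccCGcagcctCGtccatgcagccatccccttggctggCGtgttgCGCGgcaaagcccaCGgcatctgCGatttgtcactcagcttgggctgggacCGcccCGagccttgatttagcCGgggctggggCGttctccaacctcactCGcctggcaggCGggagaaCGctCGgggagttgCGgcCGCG
Peg3 (chr7:6730370-6730669, minus strand): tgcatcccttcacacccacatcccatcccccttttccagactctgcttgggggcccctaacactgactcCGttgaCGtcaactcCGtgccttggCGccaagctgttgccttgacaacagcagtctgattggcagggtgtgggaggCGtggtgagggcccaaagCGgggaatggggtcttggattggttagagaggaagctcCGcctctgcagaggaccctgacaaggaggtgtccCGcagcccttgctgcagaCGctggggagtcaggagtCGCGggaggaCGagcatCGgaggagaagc
Dlk1 (chr12:109452573-109452872, plus strand): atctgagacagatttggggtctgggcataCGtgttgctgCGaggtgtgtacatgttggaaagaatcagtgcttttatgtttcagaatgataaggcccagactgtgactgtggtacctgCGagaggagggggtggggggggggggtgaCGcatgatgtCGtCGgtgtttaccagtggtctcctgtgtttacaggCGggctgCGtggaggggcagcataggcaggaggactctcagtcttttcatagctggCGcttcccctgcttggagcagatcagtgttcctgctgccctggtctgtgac
The Grb10 promoter held 45 CG pairs in its 300 bases, against a median of 7 over the 32851 promoters of the same length, and 1.93% of those held as many or more. The Plagl1 promoter held 26 (16.9% held as many or more), that of Peg3 13 (37.9%) and that of Dlk1 9 (45.8%). A second RefSeq promoter of Grb10 held 9 CG pairs. The number of CG pairs describes the sequence, and methylation was not measured in these cells.

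The libraries held 25890110 to 32415665 reads counted on genes, with a median of 29985177. At this depth 3 reads correspond to 0.0926 to 0.116 CPM (counts per 1000000 reads counted on genes), which was taken as the limit of detection. Bmp2 had 1 read in the floxed library of 24 h and 0 in the other 7, so the genotype could not be checked by its transcript. The dental mesenchyme markers summed to 6931 to 8953 CPM in the floxed libraries and to 8383 to 13560 CPM in the KO libraries, a sum carried by Vim, Col1a1 and Col1a2. The median log2 fold change of the 10 tested markers was -0.23 without a block, and 0 of them passed the adjusted limit with or without the block. With the block Vim was at 0.68, Col1a2 at 0.58, Pax9 at 0.52 and Col1a1 at 0.31. Msx1 was at -0.80, Runx2 at -0.58, Msx2 at -0.47, Lhx6 at -0.36, Twist1 at -0.29 and Prrx1 at -0.15. The markers Lhx8 and Barx1 were at most 1 read in any library. Of the odontoblast markers, Dspp and Ibsp were at most 1 read in every library, and Alpl, the alkaline phosphatase of mineralizing cells, was lower in the KO cells (log2 fold change -5.61, edgeR adjusted p = 0.0153). Epithelial markers summed to at most 1.87 CPM in every library. Blood markers summed to 3.13 to 12.4 CPM in the floxed libraries and to 2.28 to 5.74 CPM in the KO libraries, mostly from Cd68, with Ptprc at most 2 reads and Hba-a1 at 0. With the culture time as a block, Krt14, Kdr, Cd68 and Des were lower and Tek higher in the KO cells at the adjusted limit, besides Alpl. Of all genes tested 8.45% passed it. At 24 h the KO library was instead higher for Krt14, Kdr and Cd68 (1.27, 1.93 and 5.67 CPM against 0.565, 1.62 and 4.80). It was lower for Tek (0.154 against 0.777 CPM). Des (10.02 against 10.63 CPM) and Alpl (13.3 against 37.2 CPM) kept their direction. Alpl had 0.556 to 1.35 CPM in the KO libraries of 6, 48 and 72 h. Muscle markers summed to 15.8 to 24.5 and 7.32 to 25.5 CPM, endothelial ones to 1.89 to 3.41 and 1.51 to 3.66 CPM, and neuronal and glial ones to 21.2 to 42.1 and 20.9 to 58.5 CPM, in the floxed and KO libraries respectively. The part of these markers in the results on the imprinted genes was not tested, and in cultured populations fewer cells of a kind and less RNA per cell cannot be told apart.

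The KO library of 24 h stood apart from the others of its genotype. Of 287 genes called between the genotypes at 6, 48 and 72 h, its level was nearer to the KO mean for 3 and nearer to the floxed mean for the rest. The floxed library of 24 h was nearer to the KO mean for 15 of them. The study's methods list 6, 48 and 72 h, so the main comparison used these 3 libraries per genotype, and the values of 24 h are given as single measurements. With 1 library per genotype and time, the 3 times stand in for replicates, so that their spread also holds what changed with time.

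**Figure D1:**
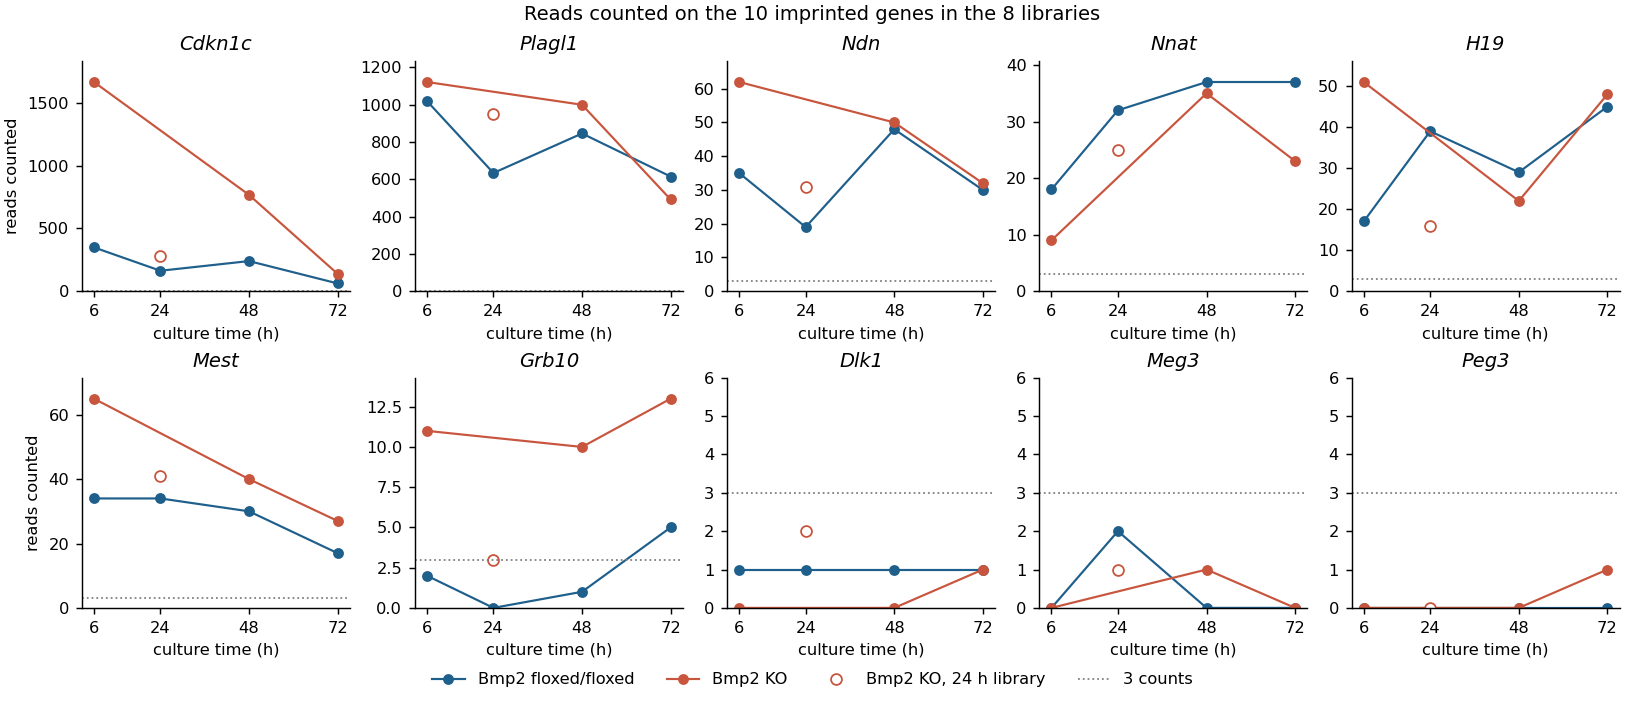
Reads counted (linear axis from 0, a scale for each gene) against culture time in h for the 10 members, in order of their mean level per length, with the floxed libraries in blue, the KO libraries in red and the KO library of 24 h as an open circle. The dotted line marks 3 reads. Cdkn1c went from 1666 to 138 reads in the KO cells, and Dlk1, Meg3 and Peg3 stayed below 3 reads.

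Levels of different genes were compared per length, as RPKM, the CPM divided by the exonic length in kilobases, averaged over the 8 libraries. Cdkn1c had 8.05 RPKM, higher than 67.5% of the 21627 genes with a known length, and Plagl1 had 3.90 RPKM, higher than 57.9%. Ndn followed with 0.788, Nnat with 0.501, H19 with 0.484, Mest with 0.315 and Grb10 with 0.0215 RPKM. Dlk1, Meg3 and Peg3 had 0.00544, 0.00098 and 0.000363 RPKM. Over the 8 libraries Cdkn1c ranged from 1.03 to 29.4 RPKM and Plagl1 from 2.61 to 5.24, so the order of these 2 genes was not the same in every library. Ndn (0.406 to 1.28), Nnat (0.168 to 0.646), H19 (0.231 to 0.782) and Mest (0.138 to 0.562) overlapped in their RPKM.

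For the comparison of genotypes, the counts of 6, 48 and 72 h were tested with edgeR's quasi-likelihood test, and p-values were adjusted with the Benjamini-Hochberg method over the 13121 genes. A gene passed the adjusted limit where its log2 fold change was 1 or more in size and its adjusted p 0.05 or less, and the unadjusted limit where the fold change was larger than 1 in size and the p itself under 0.05. Without a block for culture time, 0 of the 7 tested members passed the adjusted limit, against 2.19% of all genes tested. At the unadjusted limit, 2 members (Cdkn1c and Grb10) passed in edgeR, against 7.35% of all genes. The deviations of the floxed and the KO library from their genotype means were correlated within a culture time, with a coefficient of 0.713 at 6 h, 0.536 at 48 h and 0.84 at 72 h. With the culture time as a block, Cdkn1c and Grb10 passed the adjusted limit, where 8.45% of all genes did, and the same 2 members passed the unadjusted limit, where 9.46% of all genes did. Of the tested members 6 had a log2 fold change above 0 without the block, with a median of 0.57, whereas 53.6% of all genes tested lay above 0 with a median of 0.03. Groups without overlap (all 3 KO libraries above, or all below, the 3 floxed ones) were seen for 1 of the 7 members, Grb10, and for 19.3% of all genes tested. Grb10 is also 1 of the 2 members called and 1 of the 6 above 0. It passed the filter on low counts only through its KO libraries, so it had to differ and to lie above 0.

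**Figure D2:**
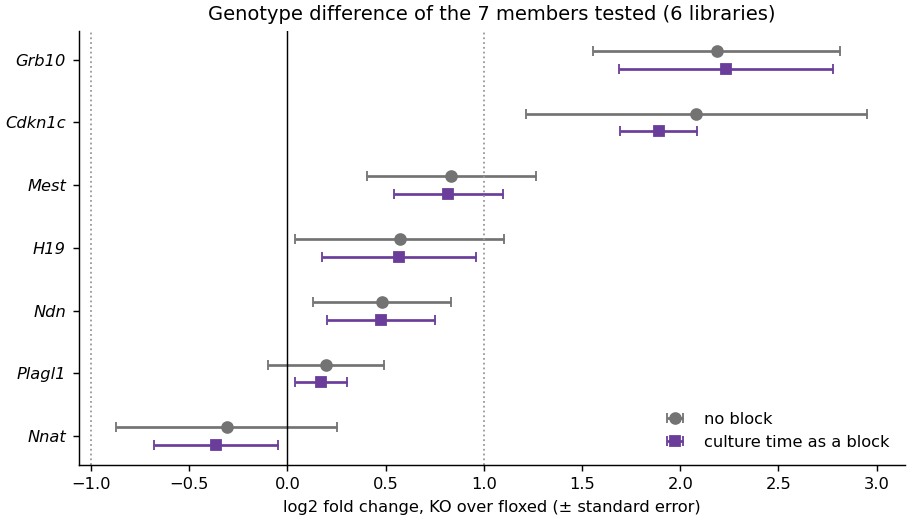
Log2 fold change of the KO over the floxed cells (horizontal axis) for the 7 members tested in the 6 libraries of 6, 48 and 72 h, with bars for the standard error. Grey circles are without a block and purple squares with the culture time as a block, and dotted lines mark a log2 fold change of 1 in either direction. The standard error of Cdkn1c was 0.87 without the block and 0.20 with it.

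Cdkn1c encodes p57, an inhibitor of cyclin-dependent kinases that lets cells leave the cell cycle, and it is expressed from the maternal copy. The gene (ENSMUSG00000037664.6, mm9 chr7:150644255-150646955, minus strand) has 1931 exonic bases that overlap no other annotated exon. In the floxed libraries of 6, 24, 48 and 72 h it had 349, 163, 240 and 62 reads. In the KO libraries of the same times it had 1666, 282, 767 and 138 reads. At each time the KO library was the higher, but over the times the groups overlapped, since the KO level at 72 h was below the floxed level at 6 h. The means over 6, 48 and 72 h were 6.87 ± 4.65 CPM in the floxed cells and 29.0 ± 25.9 CPM in the KO cells (SD, n = 3). The log2 fold change was 2.08 ± 0.87 (SE, edgeR adjusted p = 0.344 without a block). With the culture time as a block it was 1.89 ± 0.20 (SE) (edgeR adjusted p = 0.000961). The call with the block held when the libraries of any 1 of the 3 times were left out, with log2 fold changes of 1.62 without 6 h, 1.96 without 48 h and 2.03 without 72 h (edgeR adjusted p of 0.0031, 0.00242 and 0.00203), a check added after the data were seen. With the 24 h libraries added to the block the log2 fold change was 1.62 and the adjusted p 0.069 in edgeR. Without a block, leaving out the KO library of 6 h reduced the log2 fold change to 1.17. The tested genes of chromosome 7 showed a median log2 change of 0.02.

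The size of the Cdkn1c difference was not the same at each time. The CPM ratio of the KO to the floxed library was 5.05 at 6 h (95% interval for counting error 4.50 to 5.69), 3.39 at 48 h (2.93 to 3.93) and 2.69 at 72 h (1.98 to 3.69). At 24 h it was 1.89 (1.55 to 2.30), the smallest of the 4. The intervals of 6 and 48 h do not overlap, but they cover counting error alone and there was 1 library per genotype and time. In a test of a different time slope in each genotype, the slope of Cdkn1c in the KO cells minus that in the floxed cells was -0.22 ± 0.43 (SE) per doubling of time (edgeR adjusted p = 1).

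Grb10 encodes an adaptor protein that binds the insulin and IGF1 receptors and dampens their signal, and in most tissues outside the brain it is expressed from the maternal copy. The gene (ENSMUSG00000020176.10, mm9 chr11:11830511-11938686, minus strand) has 9164 exonic bases, and the CG-rich promoter shown above is 1 of its 2 RefSeq promoters. It had 2, 0, 1 and 5 reads in the floxed libraries of 6, 24, 48 and 72 h. In the KO libraries it had 11, 3, 10 and 13 reads at the same times. The 3 KO libraries of the main comparison lay above all floxed libraries, and that of 24 h lay among them. The means were 0.085 ± 0.0669 CPM and 0.401 ± 0.0906 CPM (SD, n = 3), the former below the limit of detection. The log2 fold change was 2.19 ± 0.63 (SE, edgeR adjusted p = 0.174 without a block) and 2.23 ± 0.55 (SE) with the block (edgeR adjusted p = 0.0248). Grb10 passed the filter on low counts only through its KO libraries, so a gene kept in this way had to differ. The call with the block was lost when the libraries of any 1 of the 3 times were left out (edgeR adjusted p of 0.0616 to 0.0787) and in DESeq2 (adjusted p = 0.11). The CPM ratio was 5.82 at 6 h with a 95% interval for counting error from 1.27 to 54.0, 10.6 at 48 h (1.51 to 459.9) and 3.14 at 72 h (1.05 to 11.3). At 24 h both libraries were at or below 3 reads and no ratio is given.

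H19 is a maternally expressed non-coding RNA that shares its control region with Igf2 and is the host of the microRNA Mir675, which lies on the same strand over 84 of its 2372 exonic bases. The gene (ENSMUSG00000000031.9) lies at mm9 chr7:149761434-149764048 on the minus strand. It had 17, 39, 29 and 45 reads in the floxed libraries of 6, 24, 48 and 72 h and 51, 16, 22 and 48 reads in the KO libraries. The KO library was the higher at 6 and 72 h and the lower at 24 and 48 h. The means were 0.96 ± 0.449 CPM and 1.44 ± 0.624 CPM (SD, n = 3), and the log2 fold change of 0.57 ± 0.53 (SE) did not pass the test (edgeR adjusted p = 0.719, and 0.325 with the block). With 1 library left out it ranged from 0.26 to 1.01, and with the block it was 0.07 without the libraries of 6 h. The CPM ratio was 3.17 at 6 h (95% interval for counting error 1.8 to 5.86) and 0.448 at 24 h (0.234 to 0.82), so the ratios of these times lay on opposite sides of 1. The separate table of lncRNA counts gave 0.56 for the same fold change.

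Meg3 is a maternally expressed non-coding RNA of the Dlk1 cluster on chromosome 12 (ENSMUSG00000021268.10, mm9 chr12:110779211-110809936, plus strand). It had 2 reads in the floxed library of 24 h, 1 read each in the KO libraries of 24 and 48 h and 0 in the other 5. Its level was therefore at or under the limit of detection in all 8 libraries, and a genotype difference was not detectable at this depth.

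Among the paternally expressed members, Plagl1 was the most abundant. It encodes a zinc finger transcription factor known to act on other imprinted genes and to restrain the cell cycle (ENSMUSG00000019817.11, mm9 chr10:12810497-12851500, plus strand). It had 1020, 634, 846 and 615 reads in the floxed libraries of 6, 24, 48 and 72 h and 1122, 951, 1000 and 492 reads in the KO libraries. The groups overlapped, with means of 26.2 ± 6.58 CPM and 30.0 ± 9.88 CPM (SD, n = 3). The log2 fold change was 0.20 ± 0.30 (SE) (edgeR adjusted p = 0.842), and 0.17 ± 0.13 (SE) with the block (edgeR adjusted p = 0.38). With 1 library left out and no block it ranged from 0.01 to 0.40. The tested genes of chromosome 10 showed a median of 0.30 on the same scale, and relative to it that of Plagl1 was -0.10. The cause of the shift of the chromosome was not tested. The ratio of the 24 h libraries was 1.64 (95% interval for counting error 1.48 to 1.81), the highest of the 4 times.

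Mest encodes an enzyme of the hydrolase family that is abundant in embryonic mesoderm (ENSMUSG00000051855.8, mm9 chr6:30673547-30698457, plus strand). It had 34, 34, 30 and 17 reads in the floxed libraries and 65, 41, 40 and 27 reads in the KO libraries of 6, 24, 48 and 72 h. The KO library was the higher at all 4 times, and over the times the groups overlapped. The means were 0.854 ± 0.282 CPM and 1.52 ± 0.613 CPM (SD, n = 3), with a log2 fold change of 0.83 ± 0.43 (SE, edgeR adjusted p = 0.454, and 0.0705 with the block). With 1 library left out and no block it ranged from 0.50 to 1.01. Mest is uncertain because 904 of its exonic bases (23.0%) overlap Copg2 on the opposite strand and the strand setting of the counting is not given. Copg2, a coat protein subunit with 467 to 1185 reads per library, had a log2 fold change of 0.53 with the block (edgeR adjusted p = 0.0208), and the part of its reads in the Mest counts was not tested. The median of chromosome 6 was 0.22, and relative to it the log2 fold change of Mest without a block was 0.62.

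Nnat encodes neuronatin, a small membrane protein of the endoplasmic reticulum known from neurons and endocrine cells (ENSMUSG00000067786.9, mm9 chr2:157385814-157388258, plus strand). It had 18, 32, 37 and 37 reads in the floxed libraries and 9, 25, 35 and 23 reads in the KO libraries of 6, 24, 48 and 72 h. It was the only tested member with a log2 fold change below 0, at -0.31 ± 0.56 (SE) (edgeR adjusted p = 0.87, and 0.437 with the block), and this sign turned when the KO library of 6 h was left out. The means were 0.967 ± 0.337 CPM and 0.78 ± 0.429 CPM (SD, n = 3).

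Ndn encodes necdin, a protein of the MAGE family that holds back cell division in neurons (ENSMUSG00000033585.4, mm9 chr7:69493163-69494814, plus strand). It had 35, 19, 48 and 30 reads in the floxed libraries and 62, 31, 50 and 32 reads in the KO libraries of 6, 24, 48 and 72 h. The means were 1.19 ± 0.267 CPM and 1.66 ± 0.438 CPM (SD, n = 3). The log2 fold change was 0.48 ± 0.35 (SE) (edgeR adjusted p = 0.623, and 0.246 with the block). The CPM ratio was above 1 at each time, but the interval for counting error lay wholly above 1 at 6 h alone (1.22 to 2.92).

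Peg3, a zinc finger gene of proximal chromosome 7 (ENSMUSG00000002265.8, mm9 chr7:6656603-6683132, minus strand), had 1 read in the KO library of 72 h and 0 in the other 7 libraries. Dlk1, a membrane protein related to the Notch ligands that holds back adipocyte differentiation (ENSMUSG00000040856.11, mm9 chr12:110691033-110701546, plus strand), had 1 read in each floxed library and 0, 2, 0 and 1 reads in the KO libraries of 6, 24, 48 and 72 h. Both were under the limit of detection in all libraries.

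**Figure D3:**
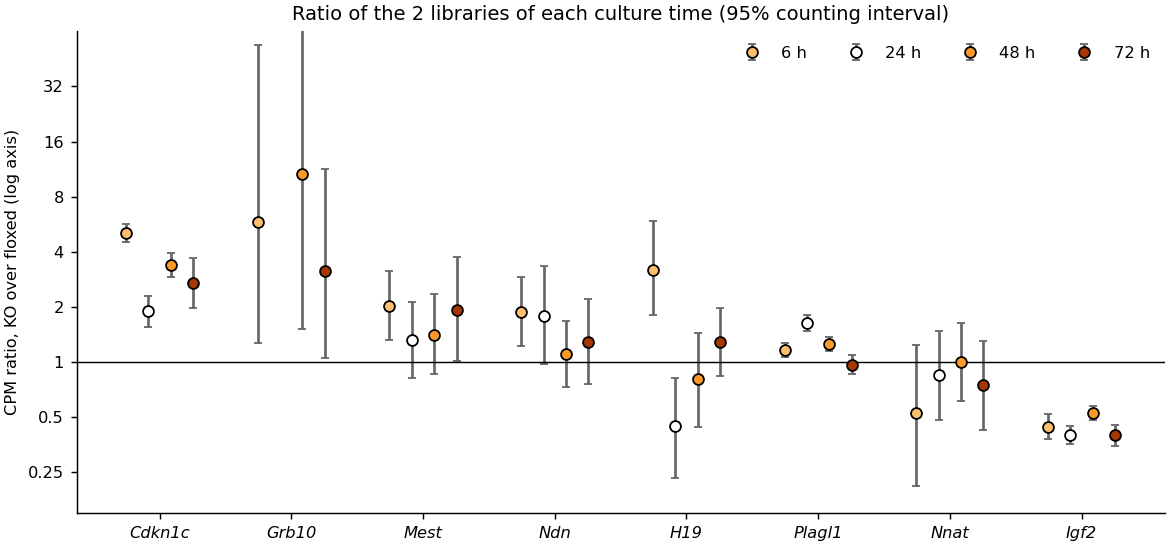
CPM ratio of the KO to the floxed library (log axis) at 6, 24, 48 and 72 h for the 7 tested members and Igf2, with bars for the 95% interval of counting error and open circles for 24 h. Cdkn1c lay above 1 at all 4 times, Igf2 lay below 1 at all 4 times, and H19 lay on both sides of 1. The upper bar of Grb10 at 48 h leaves the axis.

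Culture time was tested as 1 slope shared by the genotypes, per doubling of the time in the same 6 libraries. At an unadjusted p under 0.05, 3 of the 7 members changed with time, against 21.1% of all genes tested, and 0 genes passed an adjusted p of 0.05 in edgeR (986 did in DESeq2). Without the KO library of 6 h none of the 3 members passed the unadjusted test, and 593 genes did in place of 2775. Without the floxed library of 6 h Cdkn1c and Plagl1 did not pass it, and Plagl1 did not pass it without the floxed library of 48 or 72 h or the KO library of 72 h either. Cdkn1c had a slope of -0.56 ± 0.19 (SE) on the log2 scale per doubling (edgeR adjusted p = 0.201). From 6 to 72 h it was 5.67-fold lower in the floxed cells and 10.6-fold lower in the KO cells. DESeq2 gave a slope of -0.56 for Cdkn1c with an adjusted p of 0.0234. Plagl1 had a slope of -0.17 ± 0.07 (SE, edgeR adjusted p = 0.231), and Nnat, the 1 member of the 3 that was higher at later times, a slope of 0.40 ± 0.12 (SE, edgeR adjusted p = 0.199). Mest had a slope of -0.23, which did not pass the unadjusted test, and was 2.01-fold lower at 72 h than at 6 h in the floxed cells and 2.12-fold lower in the KO cells. The slopes of H19, Ndn and Grb10 were 0.12, -0.08 and 0.13 and did not pass the unadjusted test. A difference in slope between the genotypes was found for 0 of the 7 members at an unadjusted p under 0.05, and for 63 of all genes tested. No gene passed the adjusted test of this difference in edgeR.

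Genes of the same imprinted clusters were compared with the members to see whether neighbours moved with them. In the Kcnq1 cluster around Cdkn1c, 9 of 11 genes were tested, and Cdkn1c was the 1 gene of the cluster past the adjusted limit with the block. Of all genes tested 8.45% passed it, so 1 of 9 is near that share. Kcnq1ot1, the paternally expressed non-coding RNA that silences this cluster, had a log2 fold change of 0.22, and Slc22a18, a transporter gene next to Cdkn1c, of 0.18 (edgeR adjusted p of 0.911 and 0.958). Phlda2, a maternally expressed gene that limits placental growth, had 14, 18, 11 and 11 reads in the floxed libraries and 4, 18, 2 and 5 in the KO libraries of 6, 24, 48 and 72 h. Its log2 fold change was -1.51 (edgeR adjusted p = 0.25, and 0.065 with the block), opposite in sign to that of Cdkn1c, and it passed the filter on low counts only through its floxed libraries. Nap1l4, Osbpl5, Tssc4 and Cd81 lay between -0.08 and 0.30, and Tspan32, with 3 to 19 reads per library, was at 0.73 (edgeR adjusted p = 0.672). Another 13 tested genes lie within 1000000 bases of Cdkn1c and are on none of the lists of imprinted genes and clusters. This leaves out Phlda2 and the others named here. The median log2 fold change over these 13 was 0.03, and 0 of them passed the unadjusted limit. Of all genes tested 7.35% passed that limit, so 0 of 13 does not set these neighbours apart.

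Within this cluster, Slc22a18 was 10.7-fold lower at 72 h than at 6 h in the floxed cells and 8.30-fold lower in the KO cells, with a slope of -0.49 that did not pass the unadjusted test. Kcnq1ot1 had a slope of 0.44, which passed the unadjusted test (edgeR adjusted p = 0.181), and was 2.48-fold higher at 72 h than at 6 h in the floxed cells and 2.75-fold higher in the KO cells. Kcnq1ot1 was above its 6 h level at each later time in both lines, and in the KO cells it was highest at 48 h, when Cdkn1c was at its second highest level of the 4 times.

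**Figure D4:**
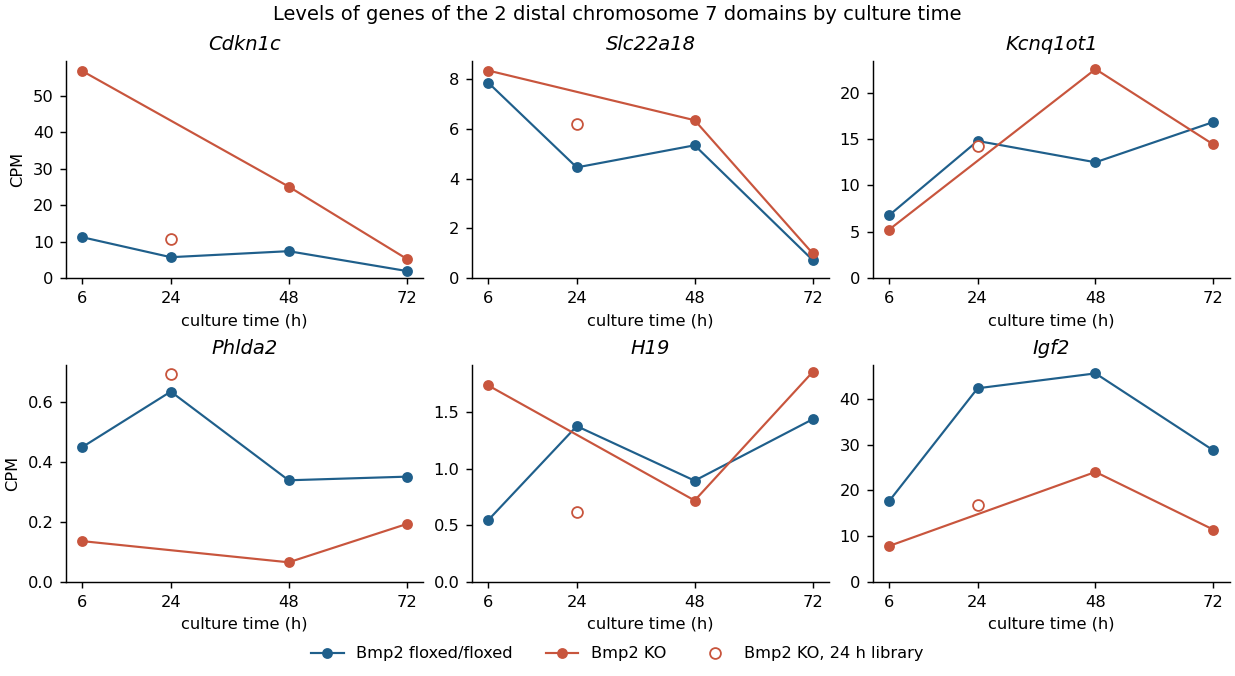
CPM (linear axis from 0, a scale for each gene) against culture time in h for Cdkn1c, Slc22a18, Kcnq1ot1 and Phlda2 of the Kcnq1 cluster and for H19 and Igf2 of the neighbouring cluster. The floxed libraries are blue, the KO libraries red and the KO library of 24 h is an open circle. Cdkn1c and Slc22a18 are lowest at 72 h in both lines, and Igf2 is lower in the KO cells at each time.

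Igf2, the paternally expressed insulin-like growth factor that shares its control region with H19, had 550, 1200, 1479 and 901 reads in the floxed libraries and 231, 439, 736 and 296 reads in the KO libraries of 6, 24, 48 and 72 h. The KO library was the lower at each time, with CPM ratios from 0.397 to 0.527. The means were 30.7 ± 14.1 CPM and 14.5 ± 8.51 CPM (SD, n = 3), with a log2 fold change of -1.08 (edgeR adjusted p = 0.399) and of -1.13 with the block (edgeR adjusted p = 0.00193). H19 thus had a fold change of the opposite sign, which did not pass the test. Igf2r, the maternally expressed receptor that clears IGF2, had 207 ± 51.3 CPM and 184 ± 43.9 CPM (SD, n = 3) and a log2 fold change of -0.16 (edgeR adjusted p = 0.849).

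Of the 8 tested neighbours in the other members' clusters, 2 (Peg12 and Phactr2) passed the adjusted limit with the block, against 8.45% of all genes tested. In the Ndn cluster, 5 of 8 genes were tested, and Peg12 was lower with the block (log2 fold change -1.05, edgeR adjusted p = 0.0175). Magel2 and Snurf were at 0 in every library. In the chromosome 12 cluster of Dlk1 and Meg3, 4 of 6 genes had at most 3 reads in every library, whereas Dio3, the enzyme that inactivates thyroid hormone, reached 107 reads and had a slope of 1.07 ± 0.11 (SE) per doubling of time, which passed the unadjusted test (edgeR adjusted p = 0.125). In the cluster of Peg3, the 3 genes of 4 that were in the table (Peg3, Usp29 and Zim1) had at most 1 read in a library. Phactr2, a neighbour of Plagl1, had a log2 fold change of 1.12, and of 1.04 with the block (edgeR adjusted p of 0.317 and 0.0135). Blcap, whose gene contains Nnat in an intron, had a log2 fold change of 0.04.

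**Figure D5:**
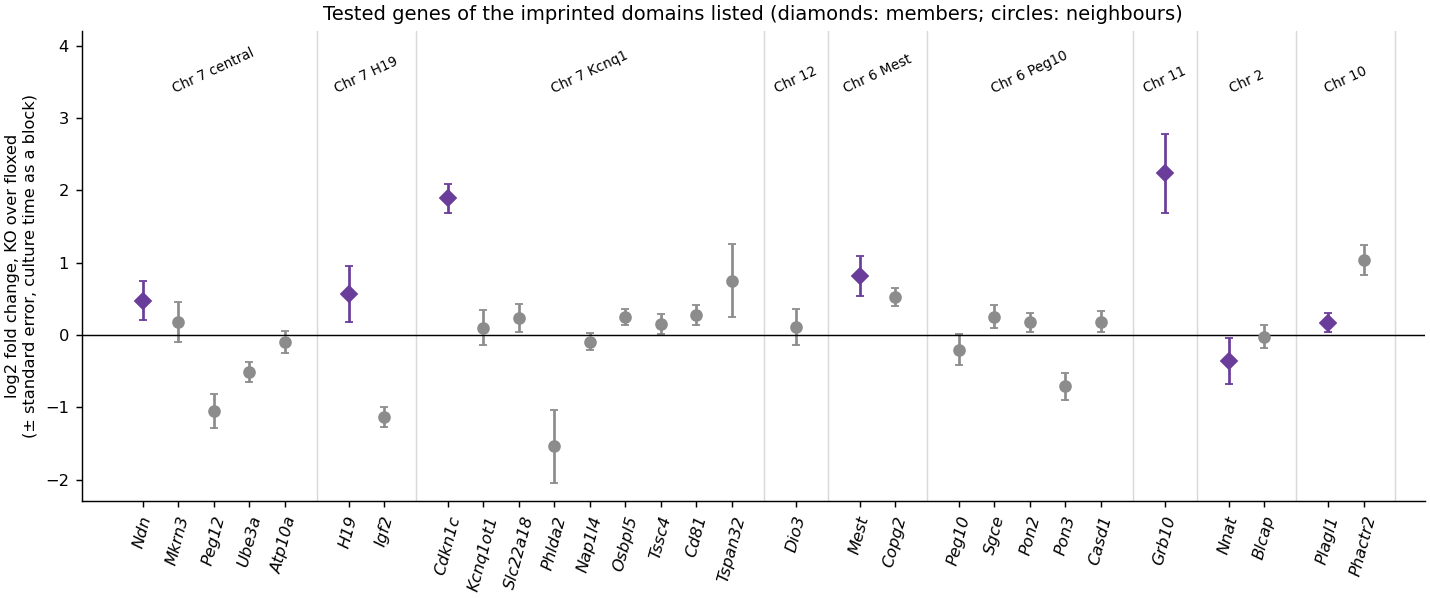
Log2 fold change of the KO over the floxed cells with the culture time as a block (vertical axis, bars for the standard error) for the tested genes of the members' clusters and of the Peg10 cluster of chromosome 6, which holds no member, grouped by chromosome and cluster. Purple diamonds are the members and grey circles their neighbours. Cdkn1c at 1.89 stands above the other genes of the Kcnq1 cluster, and Igf2 at -1.13 lies below H19.

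Of 57 other imprinted genes, 55 were in the table and 34 were tested, with a median log2 fold change of 0.11. A further 15 had at most 3 reads in every library. None of the 34 passed the adjusted limit without a block in edgeR, and 3 passed the unadjusted limit (7.35% of all genes did), of which 2 were higher (Slc38a4 and Sfmbt2) and 1 lower (Phlda2, kept by the filter only through its floxed libraries). With the block, 4 of the 34 passed the adjusted limit, against 8.45% of all genes tested. Slc38a4, an amino acid transporter gene, had 0.508 ± 0.23 CPM in the floxed cells and 3.18 ± 1.53 CPM in the KO cells (SD, n = 3), which gave a log2 change of 2.62 with the block (edgeR adjusted p = 0.00146). In the KO library of 24 h Slc38a4 had 0.886 CPM, against 0.351 to 0.772 CPM in the floxed libraries. Sfmbt2, a Polycomb gene, had 1.04 ± 0.257 CPM and 3.38 ± 1.38 CPM (SD, n = 3), which gave a log2 change of 1.66 with the block (edgeR adjusted p = 0.00871). In the KO library of 24 h Sfmbt2 had 1.27 CPM, within the 0.740 to 1.38 CPM of the floxed libraries. Igf2 and Peg12 were the 2 that were lower. Without the block 30 of the 34 had log2 fold changes below 1 in size, among them Gnas (-0.08), Sgce (0.30) and Peg10 (-0.40).

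In the network of imprinted genes expressed together in growing tissues, which holds 9 of the members, 12 of 15 genes were tested. The 4 genes past the adjusted limit with the block (8.45% of all genes were) were Cdkn1c, Grb10 and Gatm, which were higher, and Igf2, which was lower. Gatm, an enzyme of creatine synthesis, had 0, 4, 1 and 3 reads in the floxed libraries and 11, 4, 12 and 12 in the KO libraries of 6, 24, 48 and 72 h (log2 fold change 3.20 with the block, edgeR adjusted p = 0.0171). Like Grb10, Gatm passed the filter on low counts only through its KO libraries, so these 2 of the 4 genes had to differ. Decorin (Dcn), a small matrix proteoglycan of this network, had a log2 fold change of 0.85 (edgeR adjusted p = 0.435).

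Of the relatives of the members, 9 of 11 genes were tested, and 2 passed the adjusted limit without a block, against 2.19% of all genes tested, and 3 with it, against 8.45%. Dlk2, the close relative of Dlk1, had 6.86 ± 1.82 CPM in the floxed cells and 1.19 ± 0.293 CPM in the KO cells (SD, n = 3), which gave a log2 change of -2.52 (edgeR adjusted p = 0.0207 without a block). Plag1, a zinc finger factor related to Plagl1, had 1.38 ± 0.238 CPM and 0.202 ± 0.104 CPM (SD, n = 3), which gave a log2 change of -2.75 (edgeR adjusted p = 0.038 without a block). It passed the filter on low counts only through its floxed libraries, with 3, 6 and 8 reads in the KO libraries of 6, 48 and 72 h, so that a gene kept in this way had to differ. Grb14, an adaptor of the Grb10 family, had 1.45 ± 0.66 CPM and 9.63 ± 6.62 CPM (SD, n = 3), which gave a log2 change of 2.73 (edgeR adjusted p = 0.0909 without and 0.000603 with the block). The relatives of Cdkn1c did not pass the limits, since Cdkn1a (p21) had a log2 fold change of -0.82 and Cdkn1b (p27) of 0.08. In the KO library of 24 h Dlk2 had 112 reads, Plag1 42 and Grb14 20, against 27 to 43, 3 to 8 and 126 to 521 reads in the other 3 KO libraries.

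Of 22 genes whose products act with those of the members, 20 were tested, and 2 passed the adjusted limit without a block, against 2.19% of all genes tested. Igf1, a ligand of the receptor that GRB10 binds, had 101, 87, 68 and 49 reads in the floxed libraries and 649, 76, 888 and 308 in the KO libraries of 6, 24, 48 and 72 h (log2 fold change 3.19, edgeR adjusted p = 0.0165). Igf2bp1, an RNA-binding protein named for the Igf2 transcript, had 5.54 ± 1.30 CPM and 21.1 ± 9.81 CPM (SD, n = 3), which gave a log2 change of 1.93 (edgeR adjusted p = 0.0493). In the KO library of 24 h Igf2bp1 had 7.40 CPM, against 7.59 CPM in the floxed library of 24 h. The receptors Insr and Igf1r had log2 fold changes of 0.04 and -0.10, and Cdk2 and Cdk4, kinases of the cell cycle, of 0.23 and 0.38, and none of these passed the limits.

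Of 21 genes that set or keep imprints, 19 were tested and 0 passed the adjusted limit without a block in edgeR, with 1 past the unadjusted limit, against 7.35% of all genes tested. Dnmt3l, a cofactor of the methyltransferases that lay down imprints in germ cells, had 62, 181, 196 and 153 reads in the floxed libraries and 18, 54, 50 and 59 in the KO libraries of 6, 24, 48 and 72 h, with KO reads below the floxed reads at each time. In CPM the groups overlapped, since the floxed library of 6 h (1.99) lay below the KO library of 72 h (2.28). Its log2 fold change was -1.51 (edgeR adjusted p = 0.323, and 0.00575 with the block). Zfp57, which guards methylated imprints, had a log2 fold change of 0.77, and Dnmt1, the maintenance methyltransferase, of -0.19 (edgeR adjusted p of 0.323 and 0.746). With the block they were at 0.75 and -0.19 (edgeR adjusted p of 0.00479 and 0.243), so Zfp57 missed the adjusted limit by the size of its fold change.

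The genes with profiles most like those of Cdkn1c and Grb10 were found by the root mean square difference of log2 CPM, centred on each gene's mean over the 8 libraries. Nearest to Cdkn1c was Rab3il1, with a difference of 0.15 against a median of 1.37 over 13121 genes. Rab3il1 had 618, 314, 485 and 149 reads in the floxed libraries and 3033, 504, 1740 and 257 in the KO libraries of 6, 24, 48 and 72 h. Next was Vax2os2 with 0.30, a gene of 3 to 104 reads per library. Nearest to Grb10 were Asb2 with 0.35 and Fhod3 with 0.39, against a median of 1.08, and for a gene of so few reads this likeness is a weak description.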

How the data were processed

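Total RNA of each line at each culture time was sequenced as unpaired reads of 50 bases, per the labels. The authors aligned them to mm9 with TopHat2 2.0.8b after CASAVA 1.8.2 and deposited HTSeq counts per gene symbol and per lncRNA symbol, as whole numbers without normalization (the annotation and strand setting are not given in the sources used here). The 5 HTSeq summary rows per table were left out. Alignments at several positions made up 41.3 to 49.6% of all alignments and were not counted, which lowers the counts of genes that have close copies. Symbols were matched to GENCODE M1 on mm9 (95.7%) for locations and exonic lengths.

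Counts were tested in R 4.3.3 with edgeR 4.0.16 (TMM, at least 10 counts and 15 in total in edgeR's filter) over 6 libraries without a block. Alternatives were 7 or 8 libraries, the culture time as a block, DESeq2 1.42.0, limma 3.58.1 on log2 CPM (offset 0.5) and on log2 RPKM (offset 0.1), RLE scaling, library sizes alone, other filters, each library left out and the chromosome median. The block without the libraries of each time, and the block in DESeq2, were added after seeing the data. Intervals and the limit of 3 counts cover counting error only. The tests were tried on simulated data.

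The members and lists were chosen with earlier results of these data known. Named are the members, Bmp2, Igf2, Igf2r, other listed genes past the adjusted limit in either fit, and the 2 genes most like each member past the unadjusted limit (log2 CPM with a prior count of 2). The remaining listed genes and cluster neighbours were named after their values were seen. Figures were drawn with Python 3.11.15 and matplotlib 3.10.9.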

Additional observations from a re-analysis of the deposited data

Results flagged for a closer look

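Among the 4 floxed libraries, the Nnat level of the 6 h library (0.579 CPM, from 18 reads) lay further from the others than Dixon's limit allows, with 1.13 to 1.18 CPM in the other 3. Of 14 such groups of 4 libraries tested, this was the 1 past the limit, and chance gives about 1 in 20. The 6 h library is also the lowest of the KO libraries, at 9 reads.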

How the results depend on the processing

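The count of members past the adjusted limit was 0 in the main comparison and under the listed alternatives, except the culture time as a block over 6 libraries, where it was 2. Under the alternatives added after seeing the data it was 1, Cdkn1c, with the block and without the 6, the 48 or the 72 h libraries, and 1 with the block in DESeq2. At the unadjusted limit, 2 members became 1 with all 8 libraries, with the block over 8 libraries, with limma on log2 CPM, with library sizes alone and with at least 10 counts in every library, and 0 with limma on log2 RPKM. Leaving out each library in turn gave 1 to 2, with 1 left without the floxed library of 48 or 72 h or the KO library of 6 or 48 h. Grb10 was not tested with all 8 libraries or with at least 10 counts in every library, because the filter removed it. The log2 fold change of Cdkn1c ranged from 1.17 to 2.58 and that of Grb10 from 1.78 to 3.001 when 1 library was left out, and limma on log2 RPKM gave 0.40 for Grb10, whose RPKM lies below the offset of 0.1 in every library. Over all alternatives the adjusted p ranged from 3.31e-15 to 0.725 for Cdkn1c and from 0.0248 to 0.562 for Grb10. For culture time, DESeq2 gave 1 member past the adjusted limit (Cdkn1c) against 0.

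Signs turned for Plagl1 relative to its chromosome median (-0.10), and with 1 library left out for Nnat (-0.68 to 0.10, turned without the KO library of 6 h), for the slope of H19 (-0.0265 to 0.412, turned without the floxed library of 6 h) and for the slope of Ndn (-0.176 to 0.0144, turned without the KO library of 6 h). The causes were not tested. Of 234 values, 223 kept their direction and their side of the limit. Over all genes, the 287 past the adjusted limit became 1109 with the block, 0 with all 8 libraries, 33 with the block over 8 libraries, 659 in DESeq2, 144 with at least 10 counts in every library, and 9 to 378 with 1 library left out. The labels carry no replicate numbers, and the pairing of the libraries by culture time is the block given above. Depth limits Grb10, Meg3, Peg3 and Dlk1, whose floxed levels lie near or under 3 counts.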
